A study of Mus musculus with 2 samples.

Results

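The FGF-ERK ligand, receptor and feedback genes described here are 10 protein-coding mouse genes, namely Fgf4, Fgfr1, Fgfr2, Dusp6, Dusp4, Spry2, Spry4, Etv4, Etv5 and Spred1. They were chosen by symbol, and their transcripts were those annotated as protein coding in GENCODE M21 (GRCm38). All 10 had a value, among 21587 protein-coding genes with one. Of their 41 annotated coding transcripts, 38 had a value, among 49490 coding transcripts in all, and all 38 had a mean exon value above 1, the minimum used below. The cells were wild-type DTCM23/49 XY mouse embryonic stem cells, depleted of feeder cells and grown in serum with leukemia inhibitory factor. 4-thiouridine (4sU), a uridine analogue that is built into new RNA, was added at 200 µM for 10 min. RNA carrying 4sU was captured through biotin, and the labeled and the unlabeled RNA of the same 4sU-treated culture were each measured in 1 library of replicate 1. The second library is called total RNA in its title and RNA label, and preexisting RNA elsewhere in the labels. It is read here as unlabeled RNA, and the half-lives are also given for the other reading. With 1 library per pool and no read counts, no difference below has a replicate check, a test or a counting error, and every value describes these 2 libraries.

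FGF4 is secreted by pluripotent cells and acts on receptor tyrosine kinases encoded by Fgfr1 and Fgfr2, which signal through Ras, Raf and MEK to the kinases ERK1 and ERK2. ERK activity induces its own inhibitors: phosphatases of the DUSP family remove phosphate from ERK, and Sprouty and Spred proteins act on the pathway upstream of it. The ETS factors ETV4 and ETV5 carry the signal to target genes. In embryonic stem cells FGF4 signaling is known for priming cells to leave self-renewal, and in the early embryo for the choice between epiblast and primitive endoderm.

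Short stretches of the 3′ untranslated regions (3′ UTRs) of 4 of these genes are shown because such stretches are known as entry points of RNA decay factors, and the labeling data bear on how long an RNA lasts. The heptamer TATTTAT, the core of AU-rich elements, was searched on the transcript strand of the longest annotated 3′ UTR of each gene. It was found in 5 of the 10 genes, once in Fgf4 and Etv5, in 2 copies in Spry2, in 3 in Spred1 and in 4 in Spry4. Across 21045 protein-coding genes, 27.6% held it. Capitals mark the heptamer in the lines below, each with 10 bases on either side, read 5′ to 3′ from the GENCODE M21 transcripts. Fgf4 has the site at chr7:144863070-144863096 (plus strand), Spry2 at chr14:105892093-105892119 and chr14:105892054-105892080 (minus), Etv5 at chr16:22381763-22381789 (minus), and Spred1 at chr2:117178243-117178269, chr2:117179574-117179600 and chr2:117180903-117180929 (plus).
Fgf4: gacgcccaatTATTTATaattttatgt
Spry2, first site: gtgtaaagaaTATTTATttgaagtttt
Spry2, second site: aaaaaaagaaTATTTATtttaagaggc
Etv5: ttcataagcaTATTTATagctttctaa
Spred1, first site: ggcattttcaTATTTATgcactaggtg
Spred1, next site: aaagcatttaTATTTATatgacagctt
Spred1, last site: tgttttaaaaTATTTATtgaaacttgg

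The last exon of Fgf4 is also known to hold the enhancer through which SOX2 and OCT4 drive the gene in pluripotent cells. CTTTGTT followed within 3 bases by ATGCNAAT, letters that SOX and POU factors bind, was searched on the transcript strand in the same set of 3′ UTRs. It was present in 1 of the 21045 genes, Fgf4, at chr7:144864388-144864417 (plus strand). Because this enhancer of Fgf4 was known beforehand, the search only locates it. Its presence in Fgf4, and its absence from the other genes, is not a finding about these genes. Capitals mark both sets of letters.
Fgf4, SOX and POU letters: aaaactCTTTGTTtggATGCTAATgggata

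The identity of the cells was read from marker lists. All 10 pluripotency markers were measured, with a summed exon value of 11419 in labeled and 15644 in unlabeled RNA, in the deposited unit of relative abundance per length, which is 10 times TPM. Tdgf1 was the highest of them, at 6580 in unlabeled RNA. Primitive endoderm markers summed to 23.4 and 124.4, with Gata6, Sox17 and Foxa2 listed at 0 and Dab2 at 108.2 of the unlabeled sum. Trophoblast markers summed to 97.1 and 155.7, led by Tfap2c at 146.1, with Elf5 at 0. Fibroblast markers summed to 8.72 and 20.9, led by Thy1 at 14.4, with Col3a1, Postn and Lum at 0. The list of primed epiblast markers summed to 3267 and 8211, of which Dnmt3b gave 7467 in unlabeled RNA. Otx2, of the same list and named after its values were seen, was at 613 and 724.2. The others of that list, also named after their values were seen, were low in unlabeled RNA. Pou3f1 was at 16.4, Fgf5 at 2.63, T at 0.29 and Cer1 at 0.15, so the sum rests on Dnmt3b and Otx2. Introns took 15.4% of the labeled and 6.26% of the unlabeled library.

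The first comparison set the level of each RNA in the labeled library beside its level in the unlabeled library. The pools have no common scale, so a pair of values does not give the share made within the 10 min of labeling. Etv5, which encodes an ETS factor, had the highest values of the set in unlabeled RNA, and Dusp4, which encodes a phosphatase, the lowest. Fgf4, which has 1 coding transcript, stood at 138.3 in labeled and 308.3 in unlabeled RNA. Fgfr1, the main FGF receptor of epiblast cells, had its most abundant transcript, Fgfr1-203, at 19.6 in labeled and 43.3 in unlabeled RNA. Fgfr2, the receptor better known from epithelia and primitive endoderm, reached 8.53 and 19.7 in Fgfr2-207, its highest transcript confined to the Fgfr2 locus. Values per transcript are given here because transcripts of a gene share exons, so that a sum over them may count shared sequence more than once. Summed over coding transcripts, Fgfr1 came to 103.4 in labeled and 208.3 in unlabeled RNA and Fgfr2 to 93.8 and 180.8, so how far the ligand lay above each receptor depends on how shared reads were divided.

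Among the inhibitors, Spry4 stood at 50.6 in labeled and 120.9 in unlabeled RNA. Spry2 was lower, at 34.3 and 77.4. Both encode Sprouty proteins, which restrain receptor tyrosine kinase signaling. Spred1, whose product brings the Ras inhibitor neurofibromin to the membrane, had 2 coding transcripts, at 33.4 and 89.4 for Spred1-202 and at 25.3 and 72.3 for Spred1-201. Dusp6, the cytoplasmic ERK phosphatase, was lower still at 12.5 in labeled and 29.1 in unlabeled RNA. Dusp4, a nuclear MAP kinase phosphatase, was the lowest gene of the set, at 2.45 and 3.80. The spread between cultures is unknown, so neighbours in this order cannot be told apart.

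The ETS factors gave the highest levels of the set, in Etv5. Its 3 coding transcripts ranged from 209.9 to 376.5 in unlabeled and from 69.6 to 131.1 in labeled RNA. The highest, Etv5-204, is a model of 489 bases in 7 exons, while the longer Etv5-201 and Etv5-203 hold 13 exons each and 3975 and 3773 bases. Etv4 had 3 coding transcripts of 13 exons, between 25.7 and 37.2 in unlabeled and between 13.98 and 19.8 in labeled RNA.

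**Figure D1:**
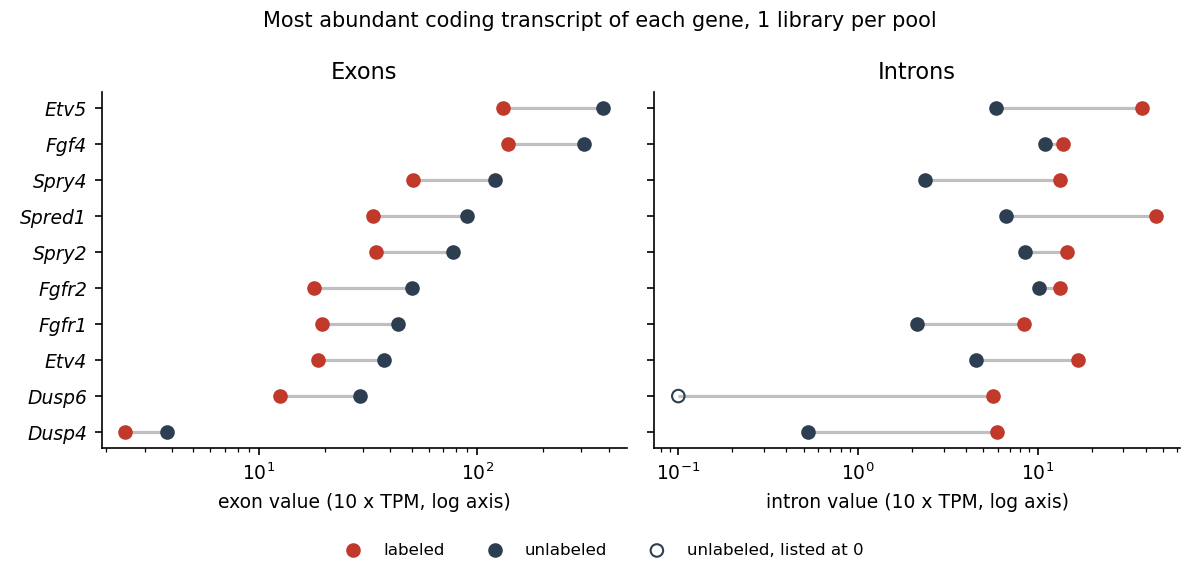
Exon values (left) and intron values (right) of the most abundant coding transcript of each gene, in 10 × TPM on log axes, with 1 point per library and no error, since each pool is 1 library. Exon values were higher in unlabeled RNA and intron values higher in labeled RNA for every gene, and the unlabeled intron of Dusp6 was listed at 0 and is drawn as an open circle at the left edge.

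The exon ratio of labeled to unlabeled RNA was below that of the median gene for all 10 members. Each gene's exon values were summed over its coding transcripts, and log2((labeled + 1) / (unlabeled + 1)) was set against its median over 14493 protein-coding genes, which was −0.21 as deposited. Relative to that median, Etv5 was lowest at −1.31, that is 2.49-fold lower. Spred1 followed at −1.24 and Spry4 at −1.03, and these 3 were the members over 2-fold below the median. Dusp6, Spry2 and Fgf4 lay together at −0.94, just short of that limit. Fgfr1 stood at −0.79, Fgfr2 at −0.73, Etv4 at −0.65 and Dusp4 at −0.26. Etv4 depended on its non-coding transcripts: with all transcripts of each gene summed it was at −1.54 and lowest of the set, next to Etv5 at −1.49. The median of the 10 was −0.94, against 0 over all genes by construction.

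Over all 14493 genes, 14% were over 2-fold below the median and 20.5% over 2-fold above it, where the set had 3 and 0 of 10. In the ranking of all genes from low to high, the members ran from the 7.18th percentile (Etv5) to the 40.1th (Dusp4). The count near the limit depended on the reference point: without centring, 7 of 10 members were over 2-fold lower in labeled RNA, against 20.6% of all genes. Long RNAs in general had lower exon ratios. The ratio fell with the spliced length of the most abundant transcript, with a Spearman rho of −0.31 across 14493 genes, which are not independent replicates. The 7 members of 2 to 4 kb had a median of −0.79, where the 5164 genes of that length had −0.15. Spry4, at 4755 bases, lay at −1.03, against −0.44 for the 2656 genes of 4 to 8 kb. Etv5 and Spred1, the lowest members, have short models as their most abundant transcripts. Etv5 lay at −1.31 where the 2783 genes under 1 kb had a median of 0.51. Spred1 lay at −1.24 where the 3474 genes of 1 to 2 kb had 0.35. Both values are gene sums and are not those of the short models alone. They include Etv5-201 and Etv5-203, of 3975 and 3773 bases, and Spred1-201, of 6016 bases. With the most abundant transcript of each gene alone, and its own median, Etv5 was at −1.26 and Spred1 at −1.14. The part of length in the members' values was not tested.

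**Figure D2:**
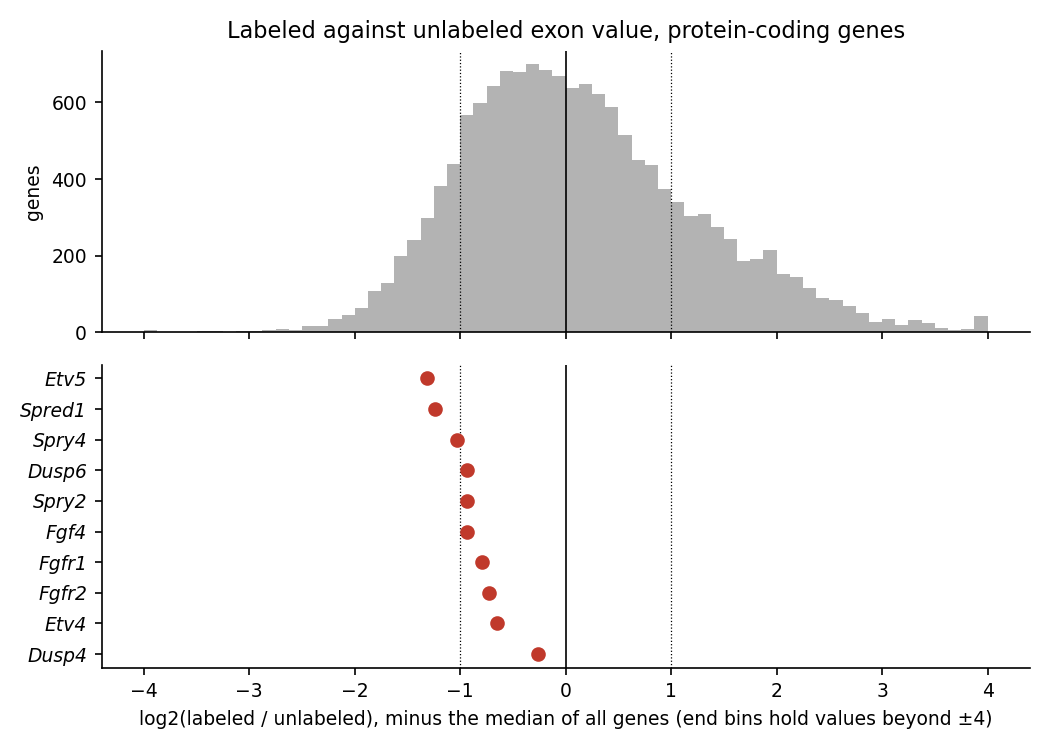
Top, number of protein-coding genes by log2 exon ratio of labeled to unlabeled RNA, relative to the median of 14493 genes. Bottom, the 10 members on the same axis, 1 point per gene, with solid and dotted lines at the median and at 2-fold below and above it. All 10 lie left of the median, from −1.31 for Etv5 to −0.26 for Dusp4.

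Intron values, which stand for RNA not yet spliced, gave another order. Across all genes they were higher in labeled RNA, with a median log2 ratio of 1.66, and members are again given relative to that median. Spred1 was at 1.01, with summed intron values of 84.7 in labeled and 12.5 in unlabeled RNA. Etv5 was at 0.84, with 123.8 and 21.2. The genes lowest in exon ratio were thus among the highest in intron ratio. Dusp4 stood at 0.52 (5.92 and 0.53), Spry4 at 0.44 (13.4 and 2.36), Fgfr1 at 0.34 (67.1 and 16.1), Etv4 at 0.21 (52.6 and 13.8) and Fgfr2 at −0.05 (62.99 and 20). Of the Fgfr2 sums, 13.3 and 10.1 came from Fgfr2-217, a model over 2960900 bases that is described below. The intron ratio of Fgfr2 was not recomputed without it.

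Spry2 and Fgf4 stood apart from the others. The intron of Spry2 was at 14.5 in labeled and 8.54 in unlabeled RNA, or −0.95 relative to the median. The introns of Fgf4 were at 13.79 and 11, or −1.35, which placed the gene at the 6.82th percentile of all genes. These are genes of 3858 (Fgf4) and 4873 (Spry2) bases from start to end. Dusp6, of similar size at 4258 bases, had 5.62 in labeled RNA and was listed at 0 in unlabeled RNA, so no ratio is given. Counting Dusp6 by the pseudocount, 7 of 10 members were above the intron median of all genes.

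The intron to exon ratio within a library needs no scaling between libraries. In unlabeled RNA it was below the median of all genes, 0.113, in 8 of the 10 members, with a median of 0.0772. Of these 8, Fgfr2 at 0.111 and Spry2 at 0.110 lay close to the median of all genes, and Dusp6 counted by a listed 0. The value of Fgfr2 leans on Fgfr2-217, a model that spans many other genes, whose own ratio was 0.202. The other 16 coding transcripts of Fgfr2 had 0.0294 to 0.133, with a median of 0.086. Spry4 was lowest among those above 0, at 0.0195, then Etv5 at 0.0262 and Fgf4 at 0.0357. Etv4, at 0.143, and Dusp4, at 0.139, were the members above the median. In labeled RNA the members fell on both sides of the median of 0.559, with 5 above and 5 below. Fgf4 had the lowest labeled ratio, 0.0997, at the 8.78th percentile of all genes. Spry4 followed at 0.264, then Spry2 at 0.424, Etv5 at 0.443 and Dusp6 at 0.449. Fgfr1 stood at 0.649 and Fgfr2 at 0.671. Etv4 at 1.00, Spred1 at 1.45 and Dusp4 at 2.42 had as much intron as exon signal or more.

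The ratios place each transcript in a plane on which a model of constant synthesis, processing and degradation allows certain regions. A transcript is compatible with the model where its labeled ratio is below 1 and above its unlabeled ratio. Of the 37 member transcripts with all values above 0, 31 (83.8%) were compatible, against 66.7% of 31386 coding transcripts. The labeled ratio was 1 or more in 6 of the 37, against 28.2% of all. These 6 were Dusp4-201, both transcripts of Spred1, Etv4-202, Fgfr1-205 and Fgfr1-212. None of the members had a labeled ratio below 1 that was no higher than its unlabeled ratio. That class is small, at 1600 of the 31386 coding transcripts, so its absence from 37 is not read as a trait of the members. The 38th transcript, of Dusp6, had no unlabeled intron value above 0. Since 17 of the transcripts are of Fgfr2 and share most of their sequence, the shares are not counts of independent cases. By gene sums 6 of 9 genes were compatible, and no share over all genes is given for such sums.

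Compatible transcripts fall above or below a line, the labeled ratio at which the equations change from 1 solution to none or 2. The members had 20 above it and 11 below, with Fgf4, Spry2, Spry4 and Etv5-204 below. Over all compatible coding transcripts, 7053 lay above it and 13867 below. Most of the member transcripts above it are overlapping models of Fgfr2, so the counts are not of independent cases. Both full-length Etv5 transcripts lay above it.

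**Figure D3:**
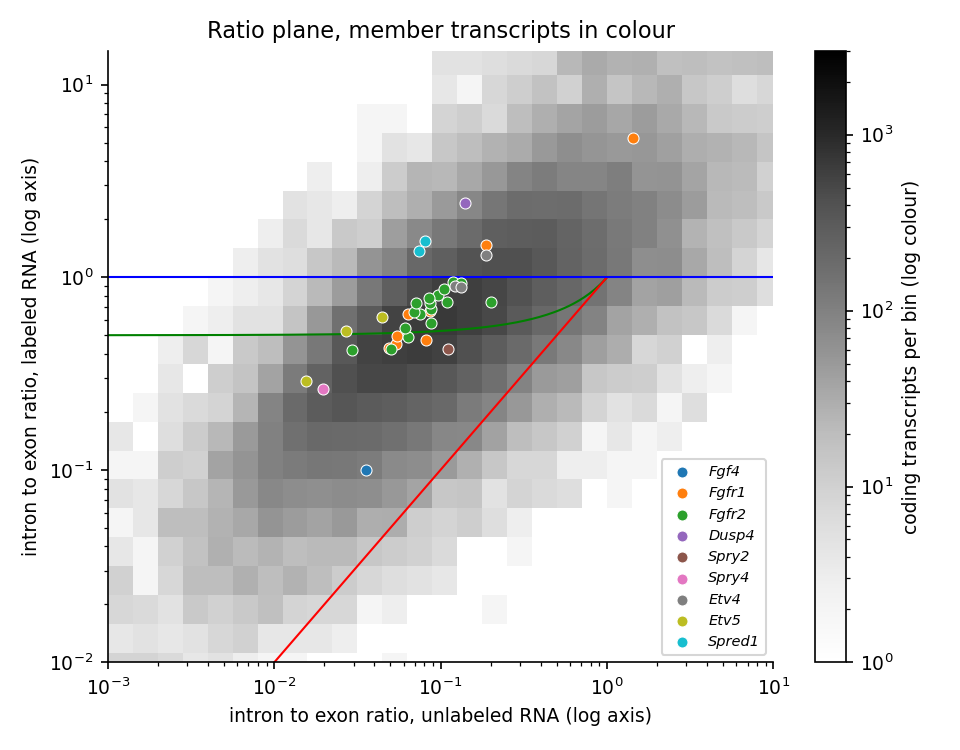
Intron to exon ratio in labeled against unlabeled RNA, on log axes, for coding transcripts (grey, number per bin) and the 37 member transcripts with values above 0 (colours). The blue line marks a labeled ratio of 1, the red line equal ratios and the green line the change in the number of solutions. Of the 37 points, 31 lie between the red and blue lines and 6 above the blue line, and Fgf4 has the lowest labeled ratio, 0.0997.

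The study's equations turn these ratios into rates, and half-lives are given here for the most abundant coding transcript of each gene where it was compatible. This left out Dusp6, Dusp4 and Spred1. Over 20920 compatible transcripts the median half-life was 19.0 min, with quartiles of 10.1 and 41.1 min. Of these 20920, 11970 had no exact solution, and theirs are values of closest fit. Fgfr1-203 had 5.50 min, with a second solution at 1.82 min. Spry2 had 6.67 min, Etv5-204 9.93 min and Spry4 13.04 min, all below that median. Fgfr2-217, the most abundant transcript of Fgfr2, which also overlaps exons of Ctbp2, had 21.5 min, above the median. Fgfr2-207, next in abundance, had 10.4 min, with a second solution at 1.42 min. Fgf4 had 49.9 min and Etv4-201 190.4 min, the longest of these. Etv4-201 also had the longest processing half-time, 32.7 min, against a median of 3.88 min over all compatible transcripts. In Fgf4, Fgfr1, Spry2, Spry4 and Etv5 the processing half-time was between 2.11 and 4.06 min. Over all 31 compatible member transcripts, 17 of them of Fgfr2, the median half-life was 37.1 min, above the 19.0 min of all compatible transcripts.

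How firmly these half-lives stand differed between genes. No rates fulfil both ratios for Fgf4, Spry2, Spry4 and Etv5-204, and theirs are the values with the smallest misfit. The misfit was 1.80 for Fgf4, against a median of 0.744 over all compatible transcripts without a solution, and between 0.282 and 0.466 for the other 3. Transcripts of 1 gene differed widely. The 17 transcripts of Fgfr2 gave half-lives from 3.82 to 394.2 min, while their labeled ratios ran from 0.420 to 0.945. The 6 compatible transcripts of Fgfr1 gave 4.67 to 39.5 min, and Etv5-201 and Etv5-203 had 37.6 and 48.8 min beside the 9.93 min of Etv5-204. With the smallest misfit sought over both variables Fgf4 came to 3.82 min. With the second library read as total RNA, as its title and RNA label say, it came to 15.6 min. That second reading lengthened the short half-lives, to 24.9 min for Spry2, 64.5 min for Fgfr1, 91.9 min for Spry4 and 129.9 min for Etv5-204. No median over all transcripts is given for that reading, so these values cannot be ranked against other transcripts. Subtraction of leakage, taken as 0.142 times the unlabeled value, gave 38.3 min for Fgfr1 and 44.3 min for Etv5-204. Etv4-201, with a labeled ratio of 0.902, lay near the limit of 1, where the study expects lower precision. For Etv4 there was no value after subtraction of leakage or from gene sums, so its narrow range rests on fewer settings. The order of the genes by half-life therefore cannot be taken as settled by these libraries.

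**Figure D4:**
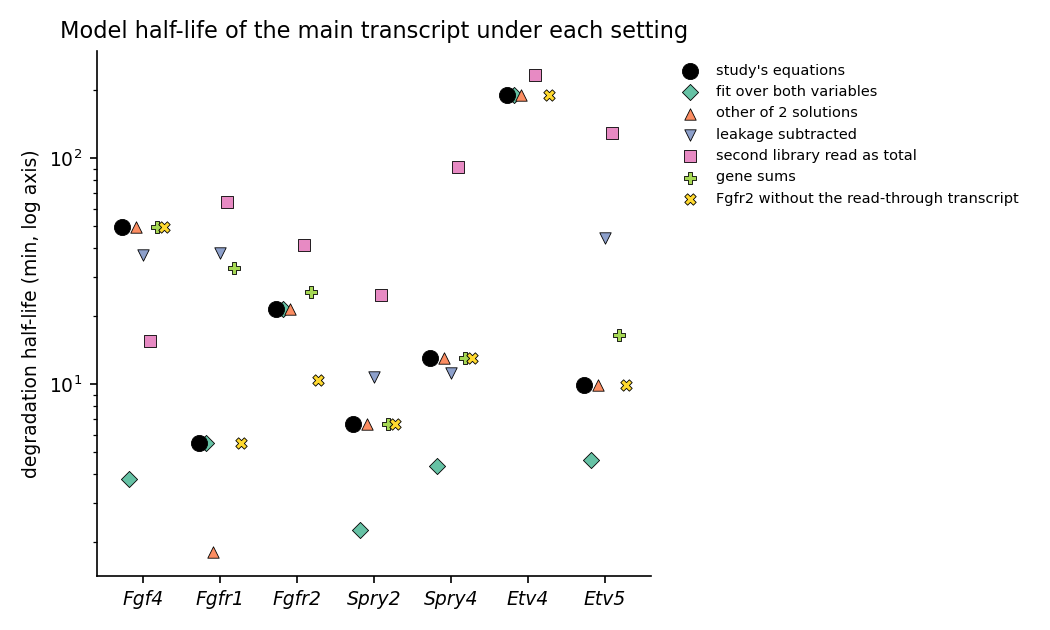
Model half-life in min, on a log axis, of the most abundant compatible coding transcript of 7 genes, with 1 symbol per setting. For Fgf4 the symbols run from 3.82 to 49.9 min, for Etv5 from 4.64 to 129.9 min, and for Etv4 from 190.4 to 235.0 min. Etv4 has no symbol for subtraction of leakage or for gene sums, and Fgfr2 has none for subtraction of leakage.

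The receptors differ by an alternative exon for part of an immunoglobulin domain, which sets the ligands they bind. The IIIb exon of Fgfr1 lies at chr8:25563374-25563524 and its IIIc exon at chr8:25564340-25564484, named by their order in transcription. In Fgfr2 they lie at chr7:130199758-130199905 and chr7:130198419-130198563. The 4 IIIc transcripts of Fgfr1 had unlabeled exon values of 28.8 to 43.3, and its 2 IIIb transcripts 29.9 and 36.0, so the ranges overlapped. The 5 IIIc transcripts of Fgfr2 had 7.66 to 19.7 and its 10 IIIb transcripts 5.03 to 9.01. These ranges overlapped too, and of the transcripts with either exon the highest was a IIIc transcript in both receptors. Summed over transcripts, Fgfr2 had more IIIb, at 42.8 in labeled and 68.8 in unlabeled RNA, than IIIc, at 28.2 and 53.4, so neither form can be called the main form of Fgfr2 from these values. In labeled RNA the same held for Fgfr1, at 13.5 to 19.6 for IIIc and 14.3 to 19.1 for IIIb, and for Fgfr2, at 4.29 to 8.53 and 3.41 to 5.49.

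Another Fgfr2 transcript had to be read apart. Fgfr2-217 had the highest values of the gene, 17.9 in labeled and 50.1 in unlabeled RNA, and contains neither exon. It is annotated at chr7:130162451-133123350, over 2960900 bases in 7 exons, of which 5 overlap other Fgfr2 exons and 2 overlap exons of Ctbp2, a gene for a transcriptional corepressor. Its span holds 69 other annotated genes, 30 of them protein coding, whose RNA could be counted as its intron. Its intron values were 13.3 and 10.1, and its half-life was 21.5 min, where that of Fgfr2-207 was 10.4 min. Without Fgfr2-217 the gene spans 103813 bases and overlaps no other gene. Fgfr1 is overlapped by 1 non-coding gene, Gm16159, and Spry4 by 2, Gm27369 and Gm27804, whose RNA may not be told apart from theirs in the introns.

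**Figure D5:**
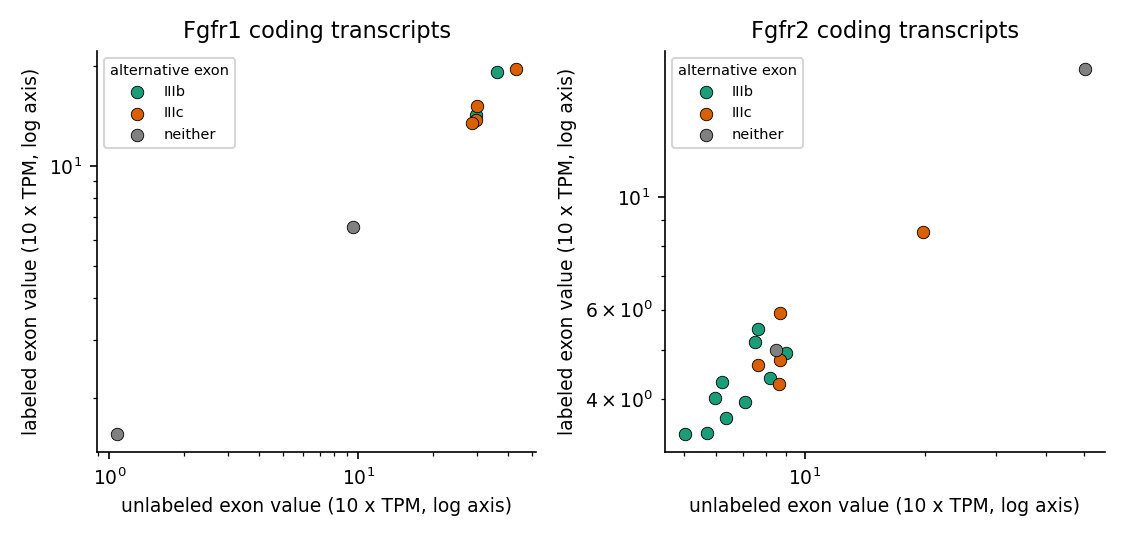
Labeled against unlabeled exon value, in 10 × TPM on log axes, for the coding transcripts of Fgfr1 (left) and Fgfr2 (right), coloured by the alternative exon they contain. The values of IIIb and IIIc transcripts overlap in both genes, and the highest point of Fgfr2, at 50.1 in unlabeled RNA, contains neither exon.

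The heptamer sites shown above were set beside the labeling values. The 5 members with TATTTAT had a median exon ratio of −1.03 relative to all genes, and the 5 without it −0.73. Over all genes the medians were −0.28 for 4109 genes with the heptamer and 0.13 for 10164 without. The sites move with the length of the 3′ UTR, whose median was 1652.5 bases in the members and 960 in all genes. In 3′ UTRs of over 2000 and up to 4000 bases, 50.8% of genes held the heptamer, as did 3 of 3 members (Fgf4, Spry4 and Etv5). Between 1000 and 2000 bases, 33.4% of genes and none of 4 members held it. Between 500 and 1000 bases, 18.2% of genes and 1 of 2 members (Spry2) did, and above 4000 bases 71.3% of genes and Spred1. The part of 3′ UTR length in the members' values was not tested.

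The nearest relatives of the members spread more widely. Of the 12 listed, 9 passed the minimum. Etv1, an ETS factor of the same subfamily as Etv4 and Etv5, was at 156.3 in labeled and 633.2 in unlabeled RNA, or −1.80 relative to the median of all genes. Spred2 was at 183 and 692.1, or −1.70, and Dusp7, another ERK phosphatase, at 23.1 and 58.0, or −1.08. These 3 were over 2-fold below the median. Spry1 (−0.63), Dusp9 (−0.53), Fgfr3 (−0.41) and Dusp5 (−0.17) were below it by less. Above it by over 2-fold were Fgf5, a ligand of the primed epiblast, at 5.31 and 2.63 (1.01), and Spred3 at 6.65 and 3.16 (1.09), both at low levels. Fgf8 was listed at 0, Fgfr4 at 0.22 and 0.44, and Spry3 was not analysed here.

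The other genes of the pathway were described in lists, to be read against the 14% of all genes over 2-fold below the median and the 20.5% over 2-fold above it. Of 10 adaptor and Ras genes, 5 were over 2-fold below the median of all genes and 1 above, with a list median of −0.98. The lowest was Gab1, a docking protein, at −1.52, and the highest Hras at 1.66. Of 10 genes of the kinase cascade, 3 were below and 1 above, with a median of −0.83. Rps6ka3, a kinase that ERK activates, was lowest at −2.04, and Araf was highest among those with a mean exon value of at least 10, at 0.45. Of the 8 other negative regulators that passed the minimum, 2 were below and 1 above, with a median of −0.24, from Cbl, a ubiquitin ligase for receptors, at −1.33 to Pebp1, an inhibitor of Raf, at 1.17. The 12 other target genes gave 0 below and 3 above, with a median of −0.20, from Ccnd1, which encodes cyclin D1, at −0.90 to Spsb1 at 2.87. The member median of −0.94 thus lay near those of the adaptors and the kinases, and no list was tested against another.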

How the data were processed

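Labeled and unlabeled RNA of 1 culture were measured in 1 library each, 2 libraries in all. Reads outside ribosomal RNA were aligned by the authors to exons and introns with STAR 2.5.0 and quantified with RSEM. The deposited values are called TPM by the authors, but each column sums to 10 times a TPM total. They give 1 exon value for each of 121429 transcripts and an intron value for 91702, and keep no counts, so depth and counting error are unknown. How reads shared by transcripts were divided is not given in the sources used here. GENCODE M21 held 90.9% of the exon rows. Gene values are sums over coding transcripts with a pseudocount of 1, centred on the median of genes with a mean exon value above 1, and a gene was called at over 2-fold. Rates follow the study's equations on 4000 grid points, with T = 10 min. Of 2 solutions, that nearest to the median rates of transcripts with 1 solution was taken. The solver was tested on simulated data. The members and lists were chosen with earlier results of these data known. Named genes were all members and paralogs, the highest and lowest gene of each other pathway list, the 3 genes nearest to Fgf4 and Dusp6 (Euclidean distance in the log2 ratios, mean exon value of at least 100), and of each marker list the highest gene and those at 0. Scripts ran in Python 3.11.15 with scipy 1.17.1 (solver), numpy 2.4.6, pandas 2.3.3 and, for the plots, matplotlib 3.10.9.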

Additional observations from a re-analysis of the deposited data

How the results depend on the processing

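All 10 members stayed below the median of all genes, and none was over 2-fold above it, under pseudocounts of 0.1 and 10, no filter, the sum over all transcripts, the most abundant transcript alone and no centring; with a minimum of 10, 9 passed and all 9 were below. The count over 2-fold below, 3 of 10, became 7 with no filter (14.2% of all genes), 7 with the sum over all transcripts (14.8%) and 7 without centring (20.6%). It fell to 2 of 10 with a pseudocount of 10 (9.92%) and 2 of 9 with a minimum of 10 (10.7%). Etv4 moved from −0.65 to −1.54 with the sum over all transcripts. The members at −0.94 lie close to that limit, and without the filter the reference median moved from −0.21 to 0. Over the pathway lists the count below, 13 of 49, became 21 of 53 with no filter and 21 of 49 without centring. It was 15 of 50 with the sum over all transcripts, 12 of 49 with a pseudocount of 10 and 9 of 41 with a minimum of 10. The count above, 8 of 49, became 3 with a pseudocount of 10, and 4 with no filter, with a minimum of 10 or without centring. The share of compatible member transcripts, 83.8%, was 62.2% after subtraction of leakage (0.142 times the unlabeled value) and 65% over all biotypes. The 66.7% of all coding transcripts holds for the main setting only. No share over all transcripts is given for the other settings, so members and background cannot be compared there. The median half-life of the 7 main transcripts, 13.04 min, was 4.64 min with the misfit taken over both variables, 37.4 min after subtraction of leakage (5 transcripts), 64.5 min with the second library read as total RNA and 21.1 min from gene sums (6 genes). Leaving out Fgfr2-217, an alternative chosen after seeing the data, gave 10.4 min and moved the exon ratio of Fgfr2 from −0.73 to −0.56. It changed no count of genes by exon ratio. Labeled to unlabeled intron ratios were not recomputed without it, so the intron count may depend on it. No exon ratio of a member changed sign in any setting. No paired analysis was possible because each pool is 1 library and no test was made, and for the same reason no replicate could be left out. Depth limits cannot be given, since the deposited values keep no counts.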

Other observations

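The genes most like Fgf4 in labeled ratio, unlabeled ratio and exon ratio, among 4228 candidates with a mean exon value of at least 100, were R3hdm4 (Euclidean distance 0.304 on the log2 scale), Eif2s3y (0.324) and AU015836 (0.390). R3hdm4 stood at exon values of 60.1 in labeled and 161.1 in unlabeled RNA, Eif2s3y at 178 and 342.4, and AU015836 at 161.9 and 399.1. For Dusp6 no distance is given, since its unlabeled intron value was listed at 0. Annotated transcripts of the members that do not code for protein also carried signal. Etv4 had 9 of them, with unlabeled exon values of 19.9 to 38.2, a range that overlaps that of its coding transcripts, and a labeled ratio of 1 or more in 7. Etv5 had 2, at 94.1 and 147.1, Fgfr1 had 7, from 2.78 to 47.4, and Fgfr2 had 9, from 0.54 to 26.3. Fgf4, Dusp6, Dusp4, Spry2, Spry4 and Spred1 had none with a value.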
